A study of Mus musculus with 19 samples.

Results

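The 9 proneural basic helix-loop-helix (bHLH) genes Neurog1, Neurog2, Neurod1, Neurod2, Neurod4, Neurod6, Atoh1, Olig1 and Olig2 were chosen by name from 26180 annotated mouse genes. They are relatives of the spermatogonial gene Neurog3, and SOXB1 proteins (SOX1, SOX2 and SOX3) are known to bind such genes in neural progenitors. SOX3 occupancy was measured by ChIP-seq in the testis of C57BL/6J mice at postnatal day 7, with tubules of 3 mice taken after the capsule was removed, and the group has 2 biological replicates. No genetic change, treatment or control antibody distinguishes these 2 peak lists, each of which was called against input DNA. The chromatin came from whole tissue with somatic and germ cells together, so a weak peak in a few cells and weak binding in many cells cannot be told apart. The labels name a pair of SOX3 antibodies, and the peak lists hold no expression values with which the tissue could be checked against markers.

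Proneural bHLH proteins bind the E-box as dimers with the broadly expressed E proteins TCF3, TCF4 and TCF12, and they switch progenitors towards neuronal or glial fates. ID proteins block these dimers, and several HES and HEY repressors, effectors of Notch signalling, silence proneural genes. In neural progenitors SOXB1 proteins hold cells in the undifferentiated state and counteract proneural activity. In the testis the same SOX3 marks undifferentiated spermatogonia (uSPG), where Neurog3 is a marker of progenitors, while the 9 genes here are best known from neurons, sensory cells, oligodendrocytes, gut and pancreas.

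The replicate 1 list held 58351 peaks and the replicate 2 list 38832. Each peak carries a q score (minus 10 times the log10 of its false discovery rate, with 30 as the authors' minimum) and a log2 ratio of ChIP over input. The lists give no read counts per peak. By the study's sequencing table, replicate 2, which has the shorter list, was the more deeply sequenced library, and the part of depth in the lists' lengths was not tested. A promoter peak overlapped the 2 kb either side of a start site of a RefSeq transcript, a gene body peak lay elsewhere in the gene, and a distal peak lay within 50 kb of either end of the gene. A peak was called matched when a single peak of the other replicate covered at least 50% of it, which held for 25.1% of the replicate 1 list and 48.4% of the replicate 2 list. Coordinates are mm10, and sequences are from the RefSeq copy of the same build.

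SOX3 promoter peaks were present in both replicates at Neurog2, Neurod2 and Atoh1, and those of Neurog2 had the highest q scores. Promoter peaks were found at 5 of the 9 genes in replicate 1 (Neurog2, Neurod1, Neurod2, Atoh1 and Olig2) and at 5 in replicate 2 (Neurog2, Neurod2, Neurod4, Atoh1 and Olig1). Of all genes, 62.7% had a promoter peak in replicate 1 and 54.7% in replicate 2. Peaks in both replicates were seen at 3 of the 9 genes (Neurog2, Neurod2 and Atoh1, 33.3%), against 52.2% of all genes. Neurog1 and Neurod6 had a promoter peak in neither replicate, as had 34.8% of all genes. Promoter peaks of the 2 replicates overlapped each other at 2 of the 9 genes, Neurog2 and Atoh1, against 50.8% of all genes. The counts from single replicates were near the background. The count of 3 with peaks in both stood below the background of curated RefSeq genes, but the background depends on which genes are annotated: it was 40.8% with all RefSeq models and 30.4% with GENCODE, and 33.3% of the 9 genes lies above the latter. The wider sets add predicted models (RefSeq) or transcripts of every type (GENCODE), and a share of protein-coding genes alone was not counted. The count is therefore not read as a difference from other genes. The map of peaks around the start sites shows where each one lay.

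**Figure D1:**
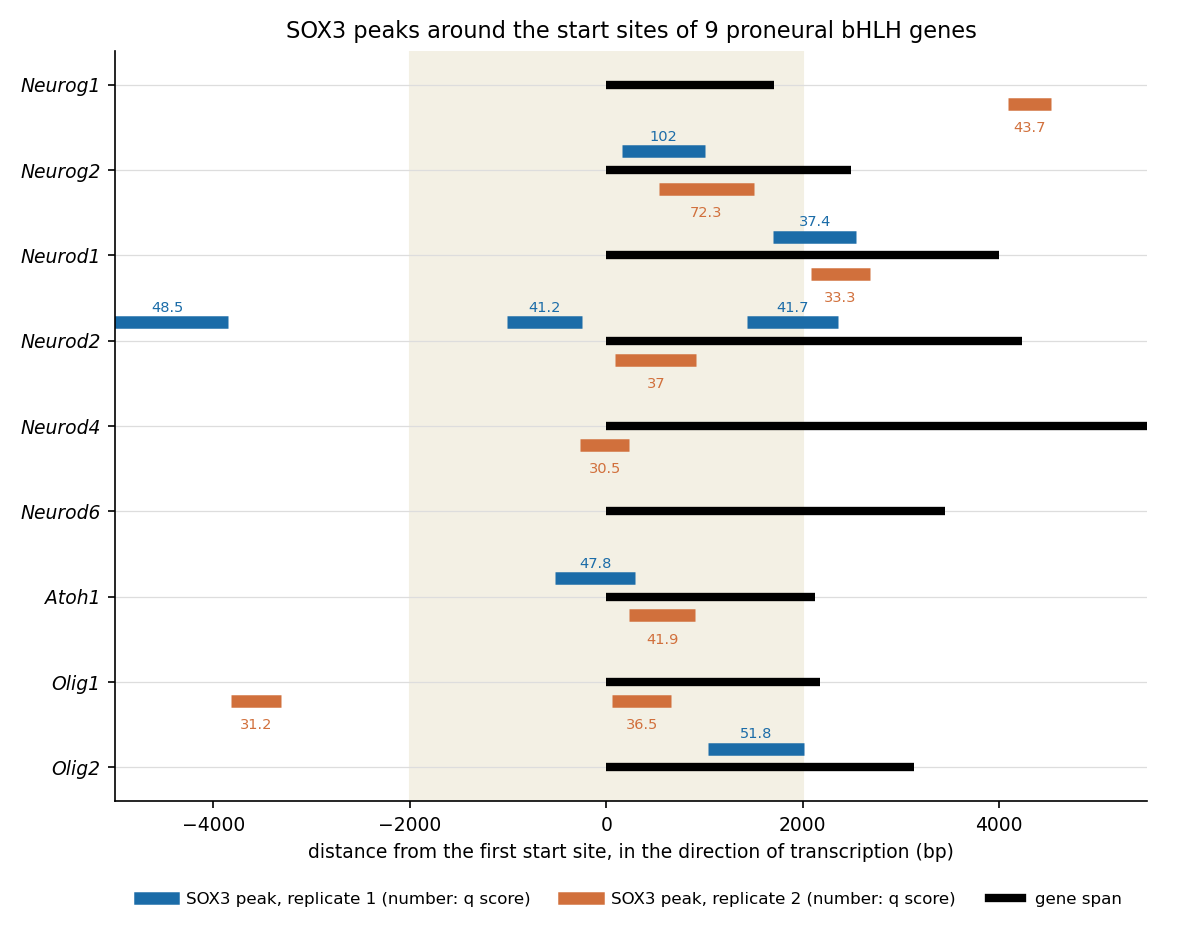
SOX3 peaks near the 9 proneural genes, by distance in bp from the first start site in the direction of transcription. Blue bars are peaks of replicate 1 and orange bars peaks of replicate 2, each with its q score, black bars are gene spans cut at the plot's edge, and the shaded band is the promoter window of 2 kb. The bars of the replicates overlap at Neurog2, Neurod1 and Atoh1, and Neurod6 has none. The downstream peaks of Atoh1 are not drawn.

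Neurog2, a determination gene of sensory and cortical neurons (chr3:127633136-127635631, plus strand), had a single peak in each replicate within the whole 50 kb window. The replicate 1 peak (chr3:127633296-127634138) had a q score of 102 and a log2 ratio of 4.60. The replicate 2 peak (chr3:127633670-127634636) had a q score of 72.3 and a log2 ratio of 3.76. Both values stood high in their lists, with 82.7% and 82.0% of peaks at or below those q scores. Both peaks lay downstream of the start site, by 160 bp and 534 bp at their nearest edge, and they shared 469 bp. This overlap covered 55.6% of the replicate 1 peak and 48.5% of the replicate 2 peak, so the latter fell just short of the 50% criterion. Of the bases in the peaks, 48.6% and 81.9% were coding. When q scores over 60 were required at the promoter in each list, Neurog2 was the sole gene left of the 9, and 35.2% of all genes were left.

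Neurod1, which acts after the neurogenins in neuronal and islet differentiation (chr2:79452637-79456636, minus strand), carried a matched pair of peaks in its coding exon. The replicate 1 peak (chr2:79454091-79454941) had a q score of 37.4 and a log2 ratio of 2.29, and the replicate 2 peak (chr2:79453956-79454555) had 33.3 and 1.85. The nearest edge was 1695 bp from the start site in replicate 1 and 2081 bp in replicate 2, so that the 2 kb limit fell between them and the first counted as a promoter peak and the second as a gene body peak. They shared 465 bp, or 54.6% and 77.5% of the peaks. It was the sole gene body peak at the 9 genes (0 of 9 genes in replicate 1 and 1 of 9 in replicate 2), against 35.7% and 27.9% of all genes. The proneural genes are short, spanning at most 12103 bp (Neurod4), and what their length contributes to that difference was not tested.

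Atoh1, the master gene of cerebellar granule cells, hair cells and gut secretory cells (chr6:64729125-64731245, plus strand), had a peak near its start and another downstream in each replicate. The replicate 1 promoter peak (chr6:64728606-64729413, q score 47.8, log2 ratio 2.64) covered the start site. The replicate 2 promoter peak (chr6:64729357-64730030, q score 41.9, log2 ratio 2.92) began 232 bp inside the gene and was 100% coding. These peaks shared 57 bp, or 7.05% and 8.46% of their lengths, and were therefore not matched. The downstream peaks were closer to each other. The replicate 1 peak (chr6:64734385-64734938) had a q score of 41.1 and the replicate 2 peak (chr6:64734562-64735242) had 39.5. They began 3139 bp and 3316 bp past the end of the gene and shared 377 bp, covering 68.1% and 55.4%. An autoregulatory enhancer with an E-box is known downstream of Atoh1, and no file used here gives its position, so whether the peaks lie in it was not tested.

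The intervals occupied in both replicates at these genes are printed here, because they are where both lists place SOX3. All are on the strand of the gene and at most 300 bases long, centred on longer overlaps. Capitals mark E-box letters (CANNTG). No SOX letters (ACAAAG or ACAATG on either strand) were in these stretches.
Neurog2 shared promoter: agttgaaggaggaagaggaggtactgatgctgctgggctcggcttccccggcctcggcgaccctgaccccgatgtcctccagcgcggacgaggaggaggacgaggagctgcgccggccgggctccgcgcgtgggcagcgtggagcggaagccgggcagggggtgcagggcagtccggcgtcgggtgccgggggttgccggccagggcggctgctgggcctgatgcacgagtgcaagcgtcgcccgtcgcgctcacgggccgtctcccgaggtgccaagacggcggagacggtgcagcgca
Neurod1 shared gene body: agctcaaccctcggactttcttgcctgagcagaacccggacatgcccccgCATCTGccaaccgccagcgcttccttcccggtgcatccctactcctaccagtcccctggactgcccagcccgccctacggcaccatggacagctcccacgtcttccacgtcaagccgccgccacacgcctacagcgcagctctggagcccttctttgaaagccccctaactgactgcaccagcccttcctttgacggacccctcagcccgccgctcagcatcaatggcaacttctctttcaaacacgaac
Atoh1 shared promoter: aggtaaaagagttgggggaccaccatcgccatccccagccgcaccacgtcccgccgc
Atoh1 shared downstream: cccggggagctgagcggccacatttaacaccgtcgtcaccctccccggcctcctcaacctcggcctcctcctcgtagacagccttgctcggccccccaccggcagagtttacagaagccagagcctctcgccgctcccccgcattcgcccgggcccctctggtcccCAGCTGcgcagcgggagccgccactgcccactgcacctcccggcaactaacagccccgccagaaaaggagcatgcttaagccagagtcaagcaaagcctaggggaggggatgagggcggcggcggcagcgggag
The Neurog2 stretch (chr3:127633754-127634053) was coding, 73.3% G and C, with 37 CpG dinucleotides and no E-box. The Neurod1 stretch (chr2:79454173-79454472) was coding, 62.0% G and C, with 18 CpG dinucleotides and 1 E-box. The Atoh1 promoter overlap (chr6:64729357-64729413) was coding and held 5 CpG dinucleotides. The Atoh1 downstream stretch (chr6:64734600-64734899) lay outside the gene, was 68.3% G and C, and held 23 CpG dinucleotides and 1 E-box.

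Neurod2, a maturation gene of cortical neurons (chr11:98325417-98329645, minus strand), had promoter peaks in both replicates that did not overlap. Replicate 1 had one in the coding exon (chr11:98327282-98328209, q score 41.7, log2 ratio 2.51) and one 251 bp upstream of the start site (chr11:98329896-98330652, q score 41.2, log2 ratio 3.53). The replicate 2 peak lay between them (chr11:98328730-98329555, q score 37.0, log2 ratio 2.46), its nearest edge 90 bp downstream of the start site. Non-overlapping peaks are uncommon among bound promoters: the replicates' peaks overlapped at 97.4% of the 13665 genes with a promoter peak in both.

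Neurod4, a gene of retinal and hindbrain neurons (chr10:130268152-130280254, minus strand), had 1 peak in all. It was in replicate 2 (chr10:130280023-130280523), it covered the start site, and its q score of 30.5 was near the minimum, with 2.01% of that list at or below it. Neurod6, a gene of cortical pyramidal neurons (chr6:55677818-55681263, minus strand), had no peak of either replicate within 50 kb. Of all genes, 15.3% had none in either list. The 250 bases upstream of both start sites are shown beside those of Atoh1, since a peak covered the start site of Neurod4 in replicate 2 and that of Atoh1 in replicate 1, while Neurod6 had none.
Neurod4 upstream: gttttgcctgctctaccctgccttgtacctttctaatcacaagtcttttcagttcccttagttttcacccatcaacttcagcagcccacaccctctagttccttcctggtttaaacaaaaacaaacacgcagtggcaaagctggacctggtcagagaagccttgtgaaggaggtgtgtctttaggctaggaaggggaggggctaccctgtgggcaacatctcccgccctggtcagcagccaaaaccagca
Neurod6 upstream: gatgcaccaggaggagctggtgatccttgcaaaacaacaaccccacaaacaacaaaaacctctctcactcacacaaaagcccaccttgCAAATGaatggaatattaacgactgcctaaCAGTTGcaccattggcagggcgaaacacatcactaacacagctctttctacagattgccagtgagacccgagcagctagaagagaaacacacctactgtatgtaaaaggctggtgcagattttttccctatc
Atoh1 upstream: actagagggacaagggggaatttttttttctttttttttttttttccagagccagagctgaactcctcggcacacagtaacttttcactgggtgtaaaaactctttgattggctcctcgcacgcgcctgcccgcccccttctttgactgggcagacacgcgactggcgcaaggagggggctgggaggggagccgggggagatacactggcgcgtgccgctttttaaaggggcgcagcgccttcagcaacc
Capitals again mark E-boxes, of which the Neurod6 stretch (chr6:55681264-55681513) held 2 and the other stretches none. The Neurod6 stretch held 3 CpG dinucleotides, the Neurod4 stretch (chr10:130280255-130280504) 2 and the Atoh1 stretch (chr6:64728875-64729124) 14.

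Olig1 and Olig2, neighbouring genes of the oligodendrocyte and motor neuron lineages, each had a promoter peak in a single, and different, replicate. The Olig2 peak (chr16:91226588-91227561, replicate 1) had a q score of 51.8 and a log2 ratio of 3.37 and lay 1038 bp into the gene (chr16:91225550-91228677, plus strand). The Olig1 peak (chr16:91269831-91270427, replicate 2) had a q score of 36.5 and a log2 ratio of 2.80 and lay 62 bp into the gene (chr16:91269769-91271939, plus strand). Both were mainly coding, at 80.5% and 92.3% of their bases. The distance windows of the 2 genes overlap, so that the Olig2 promoter peak was also a distal peak of Olig1 and the reverse. No peak in either window overlapped a peak of the other replicate.

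Neurog1, the sister gene of Neurog2 in sensory neurons (chr13:56250478-56252180, minus strand), had distal peaks and no other. There were 4 in replicate 1, with q scores of 31.1 to 37.1, and 2 in replicate 2, with q scores of 43.7 and 31.2, and none overlapped between the replicates. The nearest was 2387 bp past the end of the gene (chr13:56247658-56248090, replicate 2, log2 ratio 4.42). It lay 3718 bp from the start site of 4930550C17Rik and 4090 bp from that of Neurog1. The other replicate 2 peak lay 152 bp from the start site of the neighbouring gene Cxcl14.

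Promoter peaks at the proneural genes lay inside the genes more than over start sites. Of the 6 promoter peaks in replicate 1, 1 covered a start site (Atoh1) and 3 were over 50% coding. Of the 5 in replicate 2, 1 covered a start site (Neurod4) and 3 were over 50% coding. Among all promoter peaks, 79.1% in replicate 1 and 79.9% in replicate 2 covered a start site, and 2.79% and 3.0% were over 50% coding. Matched promoter peaks numbered 2 of 6 and 0 of 5, against 59.0% and 85.4% of all promoter peaks. These genes are short, and what the position of their coding sequence contributes to those shares was not tested.

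The promoter peaks were weak compared with those of other bound genes. The median q score of the strongest promoter peak was 47.8 over the 5 genes with one in replicate 1, against 165 over the 16417 bound genes, and 37.0 against 78.8 over 14310 bound genes in replicate 2. All 10 values (5 genes in each replicate) lay below the median of the bound genes of their list. Neurog2 came nearest to it, with 33.4% of bound genes at or below its score in replicate 1 and 45.2% in replicate 2. The other genes lay at 6.70% (Neurod1) to 16.1% (Olig2) in replicate 1, and at 0.678% (Neurod4) to 16.8% (Atoh1) in replicate 2. Ranked by the log2 ratio instead of the q score, 6 of the 10 values were below the median. Against all peaks rather than promoters, the scores were ordinary, with median percentiles of 56.1 and 42.7. Low ranks among bound genes were not particular to the proneural genes. Of the other tissue-specific bHLH genes bound in both replicates, Scx (59.8), Tcf21 (38.5) and Twist1 (35.7) had the highest mean percentiles by q score. Neurog2 had 39.3. The E protein genes had 83.4 to 96.3 and the ID genes 67.4 to 92.0.

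**Figure D2:**
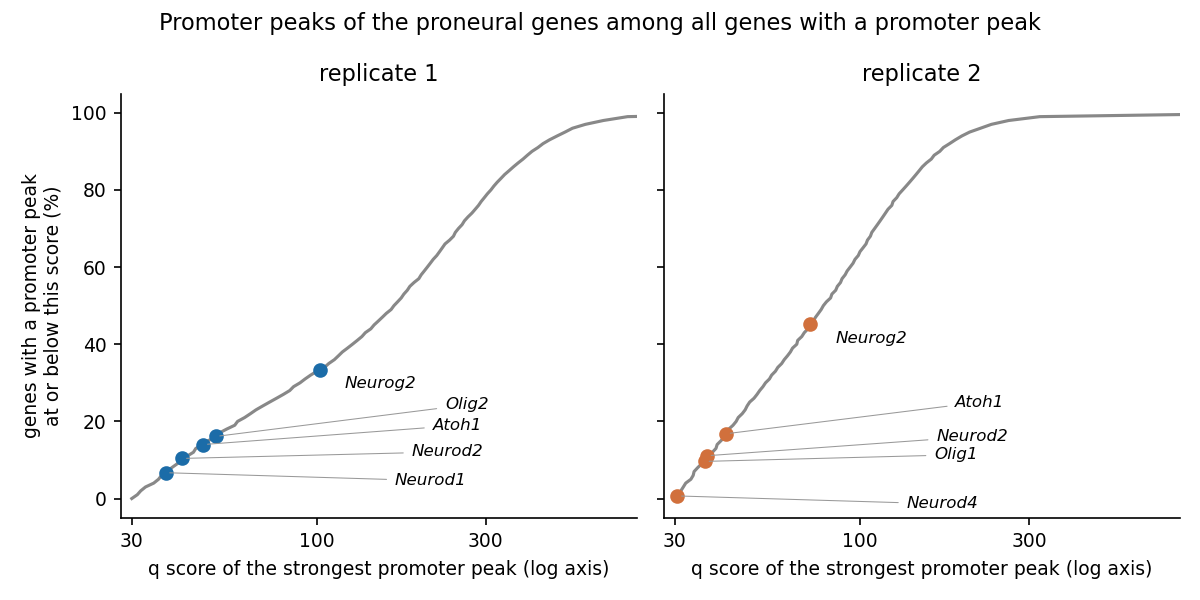
The share of genes with a promoter peak (in %, vertical axis) whose strongest peak had at most the q score on the horizontal log axis, for replicate 1 (left) and replicate 2 (right); axes stop before the highest scores. Points are the proneural genes with a promoter peak, and they sit at or below 45.2% in both panels, with Neurog2 the highest.

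Distal peaks were found in both replicates around 5 of the 9 genes (Neurog1, Neurod2, Atoh1, Olig1 and Olig2), and the same 5 had one in each replicate. Of all genes, 76.5% had a distal peak in replicate 1, 72.5% in replicate 2 and 69.7% in both. A matched distal peak in both lists was present at 2 of the 9, Neurod2 and Atoh1, against 57.7% of all genes. Neurog2, Neurod1, Neurod4 and Neurod6 had no distal peak. Counting every peak in the window, the median was 1.96 peaks per 100 kb in replicate 1 and 1.94 in replicate 2, against 3.72 and 2.56 over all genes. In replicate 1, Neurog1 (3.93), Olig2 (4.85) and Neurod2 lay above the median of all genes. In replicate 2, Neurod2 alone did. The map of the 50 kb windows shows the peaks.

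**Figure D3:**
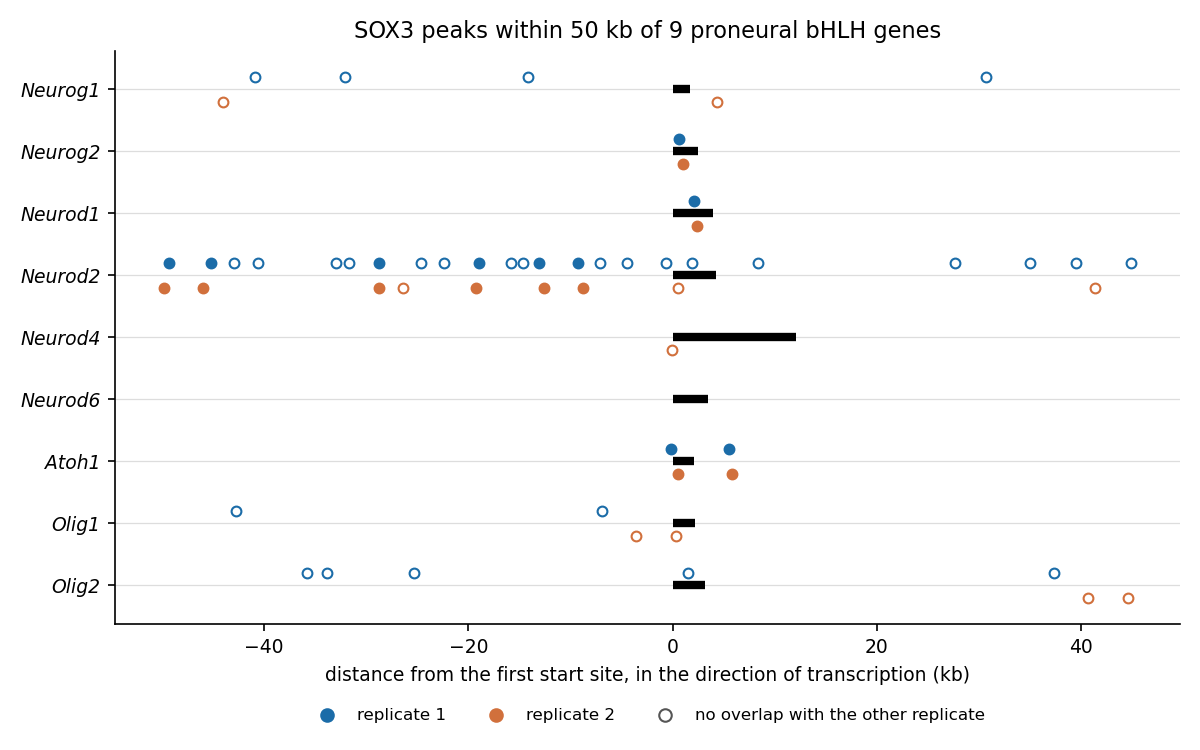
Midpoints of SOX3 peaks within 50 kb of the 9 proneural genes, by distance in kb from the first start site in the direction of transcription. Circles above each line are replicate 1 (blue) and circles below it replicate 2 (orange), filled where the peak overlaps one of the other replicate by at least 1 bp, and black bars are the genes. Neurod2 has 23 and 9 peaks, mostly upstream, while Neurod6 has none.

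The densest window was that of Neurod2, which held 21 distal peaks in replicate 1 and 8 in replicate 2. At 22.1 and 8.63 peaks per 100 kb in all, 98.7% and 85.2% of genes had the same density or less. The upstream side holds the genes Ppp1r1b, 1700003D09Rik and Stard3, and 3 distal peaks of replicate 1 and 3 of replicate 2 lay within 2 kb of a start site of another gene. The strongest peak around any of the 9 genes was among them (chr11:98356698-98360001, q score 218, log2 ratio 4.24). It covered start sites of both 1700003D09Rik and Stard3, and the replicate 2 peak there (chr11:98357574-98359100, q score 62.9) lay wholly inside it. A matched pair covered the start site of Ppp1r1b, a dopamine signalling gene (chr11:98348095-98349161, q score 74.0, and chr11:98348392-98349395, q score 52.7). In the gene Stard3, the replicate 2 peak at chr11:98379162-98379750 (q score 44.6) lay wholly inside the wider peak of replicate 1 at chr11:98377380-98380443 (q score 59.7). A replicate 1 peak at chr11:98342212-98343168 (q score 66.5) was 50.2% covered by the replicate 2 peak at chr11:98341714-98342691 (q score 32.0), itself covered to 49.1%. The matched pair with Neurod2 as its nearest gene began 8475 bp upstream of the start site in replicate 1 (chr11:98338120-98339616, q score 56.4, log2 ratio 2.96) and 8042 bp upstream in replicate 2 (chr11:98337687-98339080, q score 58.5, log2 ratio 2.59). They shared 961 bp, which covered 64.2% and 68.9%. The central 300 bases of this overlap (chr11:98338450-98338749) are shown on the strand of Neurod2, since no other distal interval nearest to Neurod2 was occupied in both replicates.
Neurod2 shared upstream: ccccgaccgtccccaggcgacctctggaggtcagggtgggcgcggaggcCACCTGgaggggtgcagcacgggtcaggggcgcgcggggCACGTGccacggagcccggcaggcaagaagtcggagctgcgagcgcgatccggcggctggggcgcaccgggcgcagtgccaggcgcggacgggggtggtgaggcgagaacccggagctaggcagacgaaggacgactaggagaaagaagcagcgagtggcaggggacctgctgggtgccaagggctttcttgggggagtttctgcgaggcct
The stretch was intergenic, 71.7% G and C, with 30 CpG dinucleotides and 2 E-boxes (capitals).

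Promoter occupancy rose with CpG content across the genome, while 3 of the 5 CpG-rich proneural genes lacked a promoter peak in 1 or both replicates. CpG observed over expected (the CpG count over that expected from the C and G counts) was computed in RefSeq windows of 300 bases, from 250 before to 50 after the start, which were present for 19528 genes and for 8 of the 9. A promoter at 0.6 or above with at least 50% G and C was called CpG-rich. By this rule 5 of the 8 were CpG-rich: Neurog1 (0.89), Neurod1 (0.84), Atoh1 (0.84), Olig2 (0.82) and Neurod2 (0.70). Neurog2 fell just under it at 0.57, and Neurod4 (0.32) and Neurod6 (0.19) were CpG-poor. Of the CpG-rich genes, 2 of 5 (Neurod2 and Atoh1) had a peak in both replicates, against 89.2% of the 9027 CpG-rich promoters in the genome. Neurod1 was counted as lacking one in replicate 2, where its matched peak lay 2081 bp from the start site, past the 2 kb limit. With a window of 5 kb Neurod1 had a peak in both. In single replicates the counts were 4 of 5 against 96.3% and 2 of 5 against 90.1%. A low count was not particular to the proneural genes. Among CpG-rich genes of related lists, 5 of 8 other tissue-specific bHLH genes had a peak in both replicates. The same held for 2 of 4 HES and HEY genes and 4 of 7 neural progenitor genes. The E protein (2 of 2), ID (3 of 3) and germ line bHLH (1 of 1) genes all had one. Of CpG-poor promoters, 25.3% were bound in both, and Neurog2 was the one such proneural gene. Between 0.8 and 1.0, where 91.4% of genes were bound in both replicates, Atoh1 was the 1 of 4. The class limits were set with these results known.

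**Figure D4:**
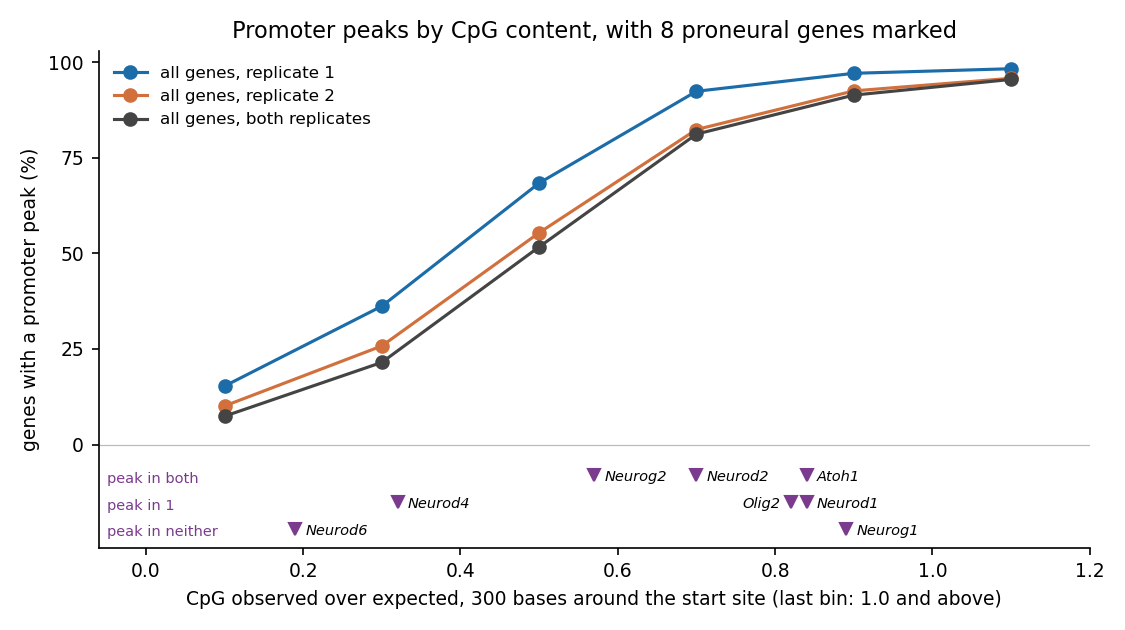
Share of all genes with a promoter peak (in %, vertical axis) by CpG observed over expected in the 300 bases around the start site (horizontal axis, bins of 0.2 with the last open above), in replicate 1, replicate 2 and both. Triangles under the zero line place 8 proneural genes by CpG content in rows for a peak in both replicates, in 1 and in neither. The share in both rises from 7.42% to 95.5%, while Neurog1, Neurod1 and Olig2 sit in a high bin without a promoter peak in both.

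The windows of the 9 genes held 36 different peaks in replicate 1 and 18 in replicate 2. Few had SOX letters near their centre, as was also true of all peaks. In the central 100 bp, 5 of the 36 (13.9%) and 0 of the 18 held ACAAAG or ACAATG on either strand, against 10.6% and 10.2% of all peaks. None of the promoter and gene body peaks (6 in each replicate) did. In the whole peak, 20 of 36 and 6 of 18 held the letters (55.6% and 33.3%), against 63.9% and 59.6% of all peaks. At promoters and gene bodies this was 1 peak in each replicate, both at Neurod2. E-box letters (CANNTG) were in 100% and 94.4% of the proneural peaks and in 97.6% and 97.2% of all peaks. Of the 9 promoter windows (Neurod4 has 2), 2 held SOX letters (Neurog1 and Olig2, 22.2% against 28.6% of all windows) and 2 held the POU octamer ATGCNAAT on either strand (Neurog1 and Neurod2, 22.2% against 3.15%). The octamer is the site of POU factors, which pair with SOX proteins, and this count of 2 is a description of letters. Neurog1 had no promoter peak, and the Neurod2 promoter peaks did not hold the octamer. Whole peaks held it in 3 of 36 and 2 of 18 cases (8.33% and 11.1%), against 7.02% and 6.08% of all peaks.

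The genes of the E proteins and ID proteins, partners and inhibitors of the proneural proteins, had higher promoter q scores in each replicate than any of the 9 proneural genes. All 3 E protein genes had promoter peaks in both replicates, with q scores of 558 and 217 at Tcf3, 412 and 123 at Tcf4, and 400 and 169 at Tcf12. All 4 ID genes were bound in both replicates, led by Id3 (407 and 193), Id2 (338 and 115) and Id4 (168 and 145), the last a marker of spermatogonial stem cells. Of the 10 HES and HEY genes, 10 were bound in replicate 1 and 6 in both, led by Hes1 (251 and 138), Hes7 (204 and 102) and Hes6 (116 and 55.5). The 4 germ line bHLH genes were bound in both, led by Tcfl5 (189 and 88.5), Sohlh1 (74.8 and 43.8) and Figla (90.3 and 31.2). The lists were chosen with earlier results known and the difference between them and the 9 genes was not tested.

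**Figure D5:**
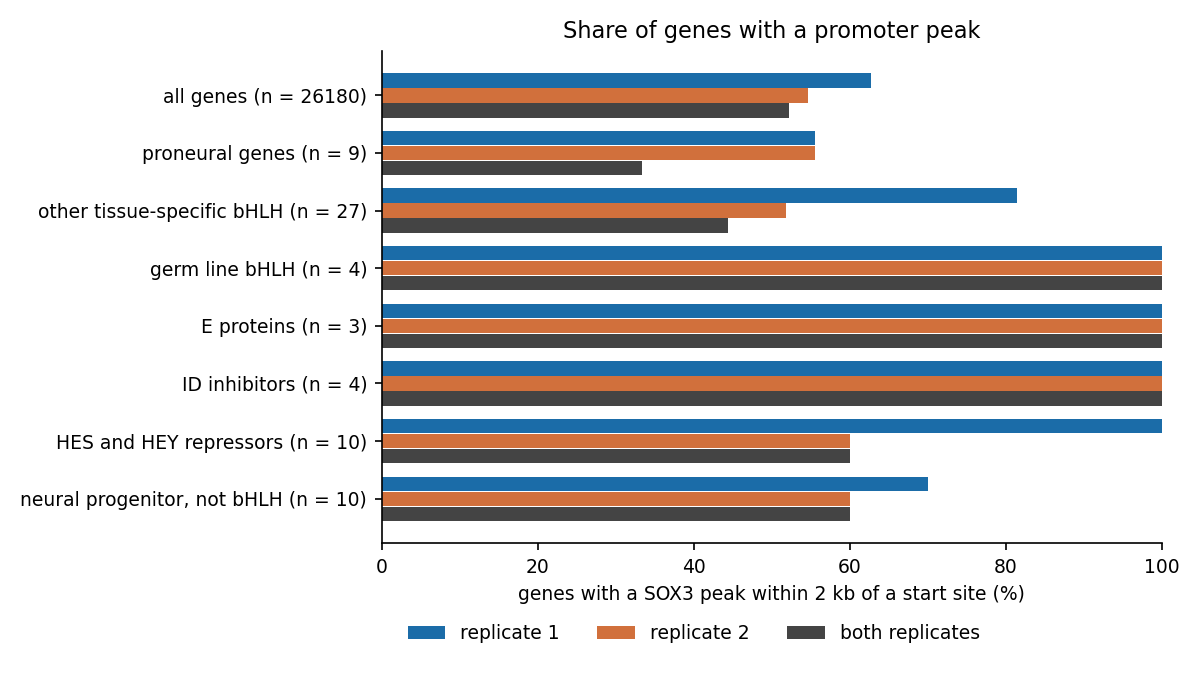
Share of genes with a SOX3 promoter peak (in %, horizontal axis starting at 0) for all genes, the 9 proneural genes and 6 lists of related genes, in replicate 1 (blue), replicate 2 (orange) and both (grey). Of the proneural genes 33.3% were bound in both replicates, against 52.2% of all curated RefSeq genes and 30.4% of GENCODE genes (not drawn).

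Other tissue-specific bHLH genes were closer to the proneural genes. Of 27 such genes, 22 were bound in replicate 1, 14 in replicate 2 and 12 in both (44.4%), and 3 in neither. The strongest were Scx (218 and 88.3), Tcf21 (117 and 64.5) and Twist1 (134 and 53.3), regulators of tendon and mesoderm. Neurog3 itself (chr10:62133090-62134763) had promoter peaks in both replicates, with q scores of 45.5 and 37.6, that did not overlap. Its window held 11 and 5 peaks, of which 2 in each replicate were matched to the other. Of 10 neural progenitor genes outside the bHLH family, 7 were bound in replicate 1 and 6 in both, led by Msi1 (331 and 108), Nes (89.6 and 44.1) and Pou3f3 (42.1 and 42.4), and 3 had no promoter peak in either. By the number of promoter, gene body and distal peaks in each replicate (6 values), the genes of the other bHLH lists nearest to the median of the 9 were Hey2 and Sohlh2, each at a summed difference of 1 peak.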

How the data were processed

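SOX3 ChIP-seq peak lists of P7 mouse testis (2 replicates) were analysed. Per the study's methods, the authors aligned reads to mm10 with Novoalign, which placed multiply mapping reads at random, removed duplicates with Picard and called peaks against input with USeq. The deposited lists hold, for each peak, a p score, a q score above 30 and a log2 ratio of ChIP over input. The meaning of the columns was taken from the methods and the values, since the lists have no header. Random placement of reads can weaken peaks in duplicated sequence. The deposited ChIP-nexus regions carry a fold enrichment ratio and a −log10 q value from MACS2 2.1.1 (submitters' processing notes). The lists hold no read counts per peak, so no counting error could be given. The study's table of library sizes gives replicate 2 more total and unique reads than replicate 1, and these totals entered no computation. Of the 19 samples of the series, 15 were not analysed here.

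Peak starts were converted to 1-based positions. Genes were 45756 curated RefSeq transcripts of 26180 gene symbols on GRCm38, the assembly behind mm10. Peaks were assigned to genes by any overlap, in the order promoter, gene body, distal, with Python 3.11.15 and numpy 2.4.6, and counting was tested on simulated peaks against bedtools 2.31.1. Results are descriptions set beside the same count over all genes, and no test was run: a single condition with 2 replicates offers none. The named genes were the 9 genes, Neurog3, the E proteins and in each other list up to 3 genes with the highest mean percentile of their strongest promoter peak among those bound in both replicates. The 9 genes and the lists were chosen with earlier results of these data known. Alternatives changed the score minimum, the windows, the annotation, the overlap rule and the motif window, and left out each replicate. One gene that the rule on likeness would name is not reported here.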

Additional observations from a re-analysis of the deposited data

How the results depend on the processing

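The number of proneural genes with a promoter peak in both replicates (3) stayed at 3 or 4 with windows of 1 kb and 5 kb, with all RefSeq models, with GENCODE and with midpoints in the window. The share of all genes with such peaks moved from 52.2% to 40.8% with all RefSeq models (38660 genes) and to 30.4% with GENCODE (55304 genes), so that the 33.3% of the 9 genes lay below the first pair and above the last. With q scores above 60, promoter peaks in both replicates fell to 1 gene (Neurog2), gene body peaks in either replicate from 1 gene to 0, distal peaks in both from 5 genes to 1 (Neurod2), and matched peaks from 12 of 54 to 2 of 7, since fewer peaks remain. The count for distal peaks was 4 to 6 with 20 kb, 100 kb, windows around start sites, or peaks outside the promoters of other genes. Leaving out 1 replicate at a time gave 5 to 5 genes with a promoter peak, 0 (without replicate 2) to 1 with a gene body peak and 5 to 5 with a distal peak, since a single list then decides. An overlap of 1 bp matched 20 of 54 peaks instead of 12. By log2 ratio, 6 of 10 promoter values lay below the median of bound genes instead of 10, and the cause was not tested. SOX letters were in 26 of 54 whole peaks against 5 of 54 central windows, which are shorter. No paired analysis was possible because the results come from no test and the replicates belong to a single group. The lists hold called peaks and no coverage, so an absent peak means that none was called.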

Other observations

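The 2 ChIP-nexus lists of SOX3 in the same tissue, made with an exonuclease step, held 111 and 19 regions. None lay within 50 kb of the 9 proneural genes or of Neurog3. The lists are very short beside the 26180 annotated genes, and the share of all genes with a region within 50 kb was not counted. By the study's sequencing table, these libraries held far fewer unique reads than the SOX3 ChIP-seq libraries. The absence is therefore not read as a result about these genes. The nearest region was 237 kb from Atoh1, in replicate 1.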
